A study of Caenorhabditis elegans with 3 samples.

Results

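Peaks of the GATA factor ELT-3 were examined at the 7 genes that encode the endoderm and intestine GATA factors of C. elegans, elt-2, elt-4, elt-7, end-1, end-3, med-1 and med-2. The genes were taken by name, as the endoderm and intestine branch of the GATA family, with earlier results of these data known, from 19973 protein-coding genes on the 6 nuclear chromosomes. For each gene the nearest peak was sought, together with any peak whose summit lay in its promoter, its gene body or the 5 kb upstream. The promoter ran from 1000 bp upstream to 200 bp downstream of any annotated transcript start. ELT-3 had been immunoprecipitated from sonicated chromatin of whole L1 larvae, the first larval stage, of both sexes pooled. The larvae were of strain OP75, genotype unc-119(ed3) III; wgIs75, which stably expresses ELT-3 fused at its C terminus to GFP-FLAG. All 3 libraries belonged to 1 group: biological replicate 2 had 1 library, and replicate 1 had 2 technical libraries that shared 1 alignment. No other genotype, stage or treatment was profiled, so there was no comparison between conditions and no test was made.

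The GATA factors MED-1 and MED-2 act at the top of the endoderm cascade, in the embryonic blastomere EMS, where the maternal factor SKN-1 switches them on. MED-1 and MED-2, together with Wnt signalling through POP-1, switch on end-1 and end-3 in the endoderm precursor. END-1 and END-3 specify endoderm, and they switch on elt-7 and elt-2. ELT-2, helped by ELT-7, then keeps intestinal genes on for the rest of the life of the worm, and it also acts on its own promoter. ELT-4 is a short protein related to ELT-2 that has no known essential role. ELT-3 belongs to the same GATA family and is known from the epidermis. The med and end genes are known for brief expression in the early embryo, while elt-2 and elt-7 are still on in larval intestine.

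Most GATA factors bind short sites with GATA at their centre. Searched here as GATA sites, on both strands, were AGATAA and AGATAG, and also TGATAA and TGATAG. MED-1 and MED-2 are known to bind a different site, whose core is AGTATAC. The stretches before the starts of 6 genes are shown because they show how such sites are arranged within 1000 bp before the gene. All are from the plus strand of ce11, 5′ to 3′. Capitals mark AGTATAC or its reverse complement in end-1 (chrV:13984878-13985127) and end-3 (chrV:14014445-14014694). Capitals mark GATA sites in elt-2 (chrX:10480716-10480965), elt-7 (chrV:4770470-4770669), med-1 (chrX:12430409-12430608) and med-2 (chrIII:6884303-6884502).
end-1: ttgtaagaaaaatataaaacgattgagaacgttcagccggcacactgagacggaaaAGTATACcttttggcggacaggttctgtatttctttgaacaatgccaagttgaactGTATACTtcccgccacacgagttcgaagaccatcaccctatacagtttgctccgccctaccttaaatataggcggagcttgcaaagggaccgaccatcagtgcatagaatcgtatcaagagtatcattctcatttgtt
end-3: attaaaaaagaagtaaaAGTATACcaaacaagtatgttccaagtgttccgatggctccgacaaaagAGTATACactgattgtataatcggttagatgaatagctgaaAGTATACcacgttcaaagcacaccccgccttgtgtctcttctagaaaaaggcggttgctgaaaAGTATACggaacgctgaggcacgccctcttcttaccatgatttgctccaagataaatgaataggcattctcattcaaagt
elt-2: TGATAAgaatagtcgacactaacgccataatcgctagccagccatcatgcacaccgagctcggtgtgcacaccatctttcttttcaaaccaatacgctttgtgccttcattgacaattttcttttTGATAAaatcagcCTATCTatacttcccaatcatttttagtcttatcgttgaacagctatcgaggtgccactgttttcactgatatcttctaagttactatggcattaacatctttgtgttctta
elt-7: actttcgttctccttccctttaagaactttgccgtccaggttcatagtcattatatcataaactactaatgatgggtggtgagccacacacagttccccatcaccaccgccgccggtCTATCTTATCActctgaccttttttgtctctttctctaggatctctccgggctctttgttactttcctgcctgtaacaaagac
med-1: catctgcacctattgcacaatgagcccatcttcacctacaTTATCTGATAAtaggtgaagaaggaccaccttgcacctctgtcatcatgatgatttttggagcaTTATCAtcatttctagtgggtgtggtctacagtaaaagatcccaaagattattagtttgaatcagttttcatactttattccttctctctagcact
med-2: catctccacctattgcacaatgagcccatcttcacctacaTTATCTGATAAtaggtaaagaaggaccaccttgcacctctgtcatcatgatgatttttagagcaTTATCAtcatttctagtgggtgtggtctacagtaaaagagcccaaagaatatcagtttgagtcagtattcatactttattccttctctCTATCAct
The stretch of end-1 held 2 AGTATAC cores and that of end-3 held 4. The other members had 0 in the promoter. For motifs and for unique words, the promoter was the same 1200 bp around the first annotated start of each gene only, so the second starts of elt-4 and elt-7 added no bases. Of all promoters 7.06% held at least 1 core, 1.62% held 2 or more, and 0.100% held 4 or more. The first 3 GATA sites stood at the same positions in med-1 and med-2, the first and second of them sharing 1 base, and med-2 had a further site next to its start. Within 250 bases before the start, 5.12% of all genes had at least 3 GATA sites and 1.13% had at least 4.

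The thresholded list, which the authors filtered on reproducibility from the pooled and replicate lists, held 4530 peaks with signals from 35.2 to 382. A peak in it need not overlap a listed peak of each replicate, as the one near med-2 described below shows. The 3 relaxed lists were made as input to that filter and contain background by design. They held 26508 peaks in the pool of both replicates, 30000 in replicate 1 and 27330 in replicate 2. The signal is the value that the authors' peak caller gave each peak, its scale is not stated, and it is compared here only within a list. Depth is unknown, because peaks and no read counts were used, and a gene without a summit is a gene with no listed peak there. Because whole larvae were used, the cells that a signal came from cannot be told apart.

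No thresholded summit lay in the promoter or in the gene body of any of the 7 genes. Their gene bodies ran from 433 bp for elt-4 to 2417 bp for elt-7, and gene length over all genes was not compared. Over all protein-coding genes, 15.5% had a thresholded summit in the promoter and 5.21% had one in the gene body. Within 5 kb upstream, 2 of 7 had one, end-3 and med-1, beside 26.9% of all genes. Counting the 3 windows together, the same pair of genes was marked, beside 29.8% of all genes. With 7 genes, a count of 0 in the promoter or of 2 upstream is a description, and neither count shows that the genes differ from others. The map of peaks around each start shows these summits with the lower ones of the relaxed lists.

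**Figure D1:**
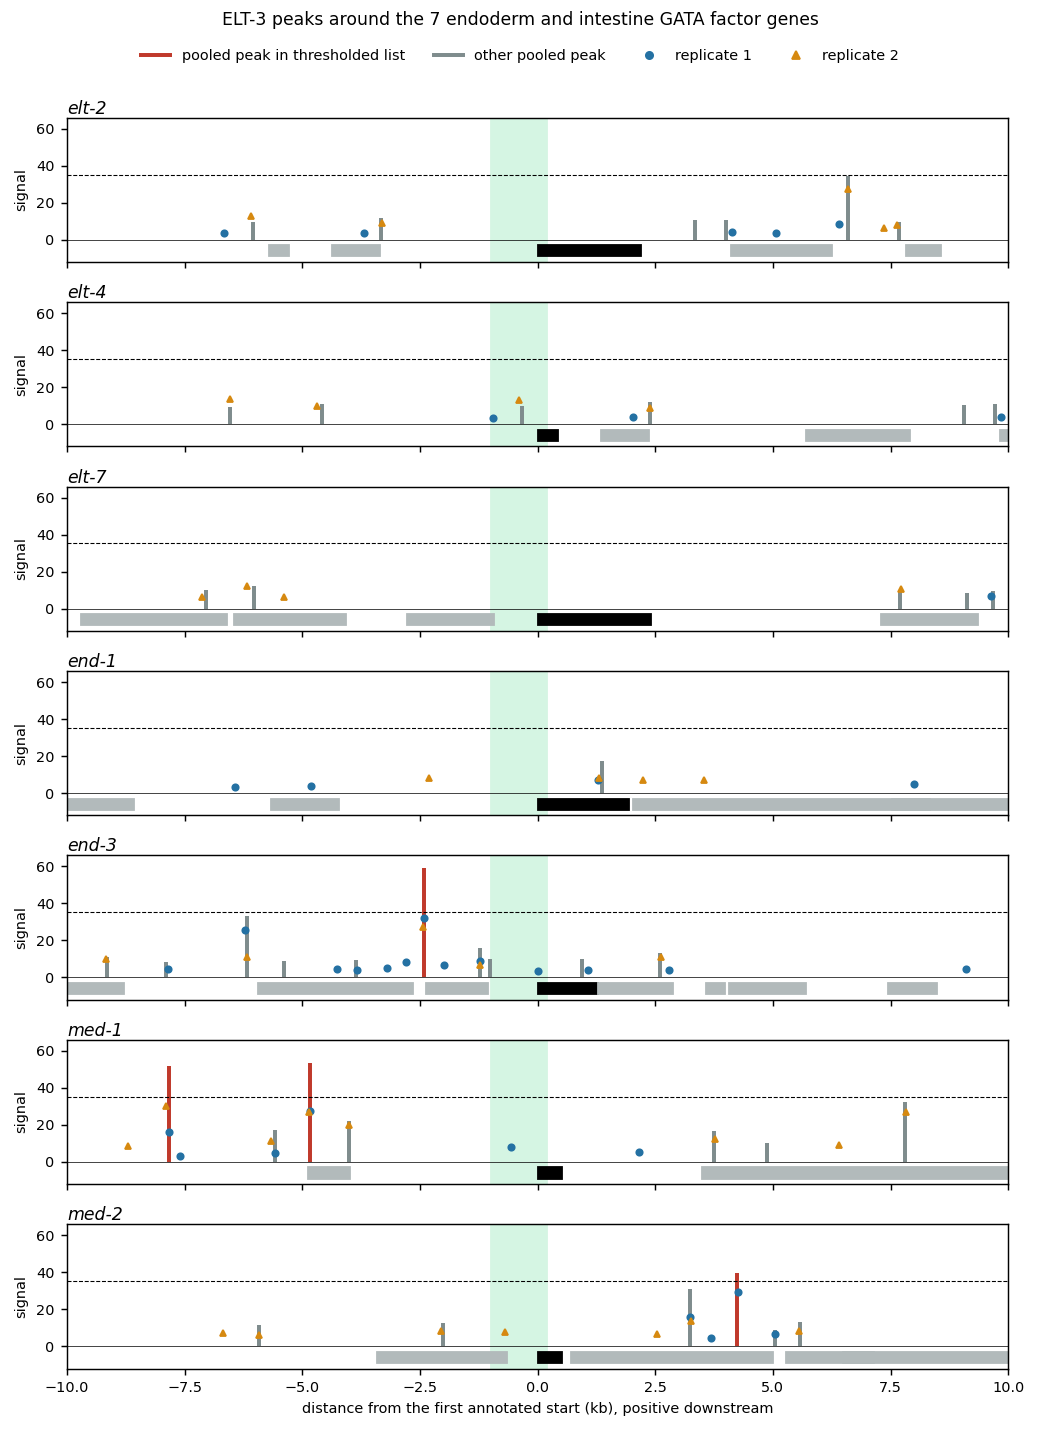
ELT-3 peaks within 10 kb of the first annotated start of each of the 7 genes, with distance in kb on the x axis and the authors' signal on the y axis. Bars are pooled peaks (red where the thresholded list holds them), dots and triangles are peaks of replicates 1 and 2, black and grey boxes are the named gene and other genes, green marks 1000 bp upstream to 200 bp downstream of the first start, and the dashed line is the lowest thresholded signal, 35.2. No red bar falls in a green band or on a black box, and elt-7 has no mark of any kind between 5 kb upstream and its end.

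The thresholded summit nearest to end-3, a factor that specifies endoderm, lay 2420 bp upstream. Its pooled signal was 59.4, rank 2299 of 4530, with 32.4 in replicate 1 and 27.1 in replicate 2. Both replicates therefore listed it, but it stood 58 bp from the start of aip-1, a neighbour known for its response to arsenite, in the gap between ddx-17 and aip-1. The bases within 50 bp of this summit (chrV:14012225-14012325, plus strand of ce11) are shown because they are from the strongest peak in any window of the 7 genes. They held no GATA site. Capitals mark CTGCGT on the other strand, a 6-base sequence that was searched because of earlier results of these data.
end-3 upstream summit: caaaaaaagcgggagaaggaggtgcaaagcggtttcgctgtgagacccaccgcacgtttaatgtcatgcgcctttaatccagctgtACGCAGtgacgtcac
Within 50 bp of the summit, 12.0% of thresholded peaks held CTGCGT and 37.8% held a GATA site. In promoters, which are longer windows, 23.9% held CTGCGT and 93.3% held a GATA site, so these shares cannot be set against those at summits.

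The thresholded summit nearest to med-1 lay 4832 bp upstream, in the untranslated region of T24D3.2 and 47 bp from the start of that gene. Its pooled signal was 53.3, rank 2694, with 27.5 in replicate 1 and 27.1 in replicate 2. It had 1 GATA site within 50 bp. A second thresholded summit lay beyond the 5 kb window, at position -7830, counted from the start of med-1 with a minus sign upstream. Its signal was 51.8 in the pool, 16.4 in replicate 1 and 30.1 in replicate 2, and it had 2 GATA sites within 50 bp. Both upstream summits in the windows, that of end-3 and that of med-1, were nearer to the start of another protein-coding gene than to the start of the member. This was also so for 4030 of 6912 pairs of a gene and a thresholded summit within its 5 kb upstream, or 58.3%. To which gene such a summit belongs was not tested.

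The near-identical partner of med-1, med-2, had its nearest thresholded summit 4241 bp downstream of its start, outside all 3 windows. That summit lay in an intron of brd-1, the worm counterpart of the BRCA1 partner BARD1, with a pooled signal of 39.9, rank 3960. Replicate 1 listed it at 29.3 and replicate 2 listed no overlapping peak. The pair lies on different chromosomes, med-1 at chrX:12430609-12431133 and med-2 at chrIII:6884503-6885027.

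All 7 genes are on the plus strand. On chromosome V, elt-7 lies at chrV:4770670-4773086, end-1 at chrV:13985128-13987074 and end-3 at chrV:14014695-14015980. On chromosome X, elt-4 lies at chrX:10475527-10475959 and elt-2 at chrX:10481240-10483441. For end-1, elt-7, elt-4 and elt-2 the nearest thresholded summit was more than 20 kb away. For end-1, an endoderm-specifying factor like end-3 whose start lies 29567 bp before that of end-3, it was 22896 bp upstream. That peak had a signal of 48.2, rank 3106, and stood 185 bp from the start of R10D12.13. For elt-7, which acts beside elt-2 in the intestine, it was 28280 bp upstream with a signal of 38.4, rank 4125, and 32 bp from the start of ugt-61, a gene of the UDP-glucuronosyltransferase family. The adjacent genes elt-4 and elt-2, whose starts are 5713 bp apart on chromosome X, shared 1 nearest peak in an intron of vab-3, the worm PAX6 gene. It had a signal of 40.5, rank 3878, and lay 31977 bp from elt-2 and 37670 bp from elt-4. For this pair the distance rested on the choice of replicates: among the 4530 strongest peaks of replicate 2 alone, the nearest summit was 6587 bp from elt-2 and 11220 bp from elt-4.

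Ordered by distance, the 7 genes ran from end-3, med-2 and med-1 to end-1, elt-7, elt-2 and elt-4. The median distance was 22896 bp over the 7 genes and 9050 bp over all protein-coding genes. Of all genes, 24.2% had a summit as near as that of end-3, 32.7% as near as that of med-2, and 35.2% as near as that of med-1. The shares for end-1, elt-7, elt-2 and elt-4 were 75.3%, 80.6%, 83.3% and 86.6%. The values of elt-2 and elt-4 are not independent, since 1 peak gave both. The order changed with replicate 2 alone, to end-3 at 2435 bp, med-1 at 4016, elt-2 at 6587, med-2 at 10821, elt-4 at 11220, end-1 at 27132 and elt-7 at 28283. The middle distance of the 7 was then 10821 bp in place of 22896 bp, so the median rested on the peaks used. In both orders end-3 was first. It was not first among the 2265 strongest thresholded peaks, with med-2 at 10822 bp, med-1 at 23879 and end-3 at 40510. The peak nearest to end-3, at 59.4, was just under the lowest signal of those 2265, 59.9.

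**Figure D2:**
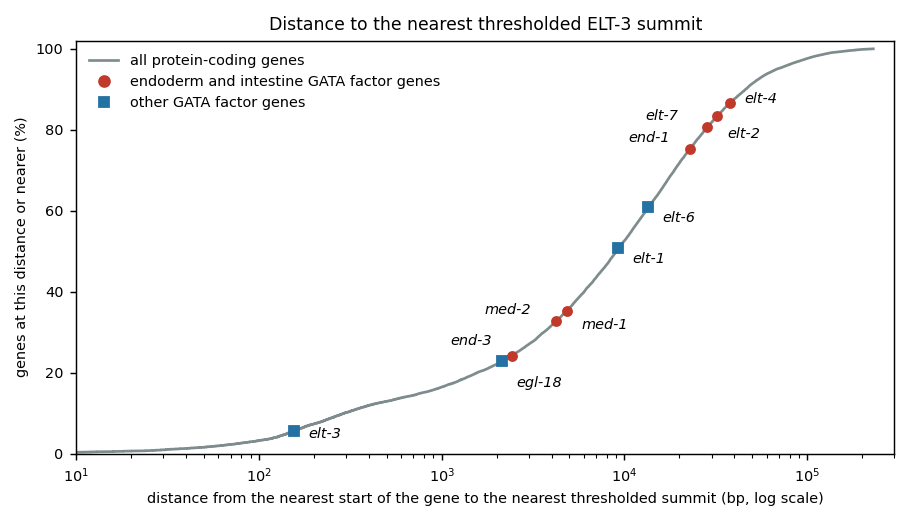
Distance in bp, on a log scale, from the nearest annotated start of a gene to the nearest thresholded ELT-3 summit, against the percentage of protein-coding genes at that distance or nearer. The grey line is all protein-coding genes, red dots are the 7 endoderm and intestine GATA factor genes and blue squares the 4 other GATA factor genes; end-3, med-2 and med-1 lie below 5 kb and the other 4 red dots above 20 kb, while elt-3 is at 156 bp. With replicate 2 alone elt-2 and elt-4 would lie at 6587 and 11220 bp and med-2 at 10821 bp.

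Several peaks fell just short of the threshold near these genes. The pooled peak at position 6588 of elt-2, downstream of the gene, had a signal of 34.4, rank 4625 in the pool, just under the lowest thresholded signal of 35.2. It was 8.42 in replicate 1 and 27.4 in replicate 2, and the nearest coding start was that of C33D3.4. A pooled peak at position -6180 of end-3 had a signal of 33.2, with 25.9 in replicate 1 and 11.2 in replicate 2. The peak near elt-2 ranked 10670 in replicate 1 and 2446 in replicate 2, and that near end-3 ranked 3473 in replicate 1 and 8996 in replicate 2, so a different replicate ranked each higher. At position 7804 of med-1 a pooled peak of 32.3 was listed in replicate 2 at 26.8 and not in replicate 1. At position 3245 of med-2 a pooled peak of 31.0 lay on a tRNA gene within brd-1, at 16.0 in replicate 1 and 13.9 in replicate 2. All 4 peaks lay outside the 3 windows of the member.

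In the relaxed lists more of the genes were marked, as were most genes of the genome. The pooled list marked 6 of 7 in any of the 3 windows, all but elt-7, beside 73.6% of all genes. Replicate 1 marked 5 of 7 beside 74.6%, and replicate 2 marked 6 of 7 beside 78.2%. These counts are near the background.

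By window, the pooled list had a summit in the promoter of 1 of 7 genes, elt-4, beside 41.9% of all genes. Replicate 1 had one in the promoters of elt-4, end-3 and med-1, 3 of 7, beside 43.6%. Replicate 2 had one in those of elt-4 and med-2, 2 of 7, beside 41.6%. Only for elt-4 did the promoter hold a summit in each of the 3 relaxed lists. Gene bodies were marked at end-1 and end-3 in the pool, 2 of 7 beside 36.1%, at the same pair in replicate 1 beside 42.5%, and at end-1 alone in replicate 2, 1 of 7 beside 36.8%. Within 5 kb upstream the counts were 5 of 7 beside 66.9% in the pool, 5 of 7 beside 68.0% in replicate 1, and 6 of 7 beside 70.9% in replicate 2.

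The promoter summit of elt-4 lay 329 bp upstream, in a weak pooled peak with a signal of 9.70, rank 20577 of 26508. Replicate 2 listed it at 12.9, 386 bp upstream. The peak of replicate 1, with a signal of 3.55, lay 941 bp upstream and did not overlap it, in an intron of the noncoding gene linc-83. So the 3 promoter summits of elt-4 were not 1 reproducible peak. The pooled summit of elt-4 had 3 GATA sites within 50 bp, and no other member had a pooled summit within 50 bp of a GATA site of its promoter.

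The peak of end-1 lay inside the gene, in an intron, 1358 bp downstream of the start in the pool with a signal of 17.1, rank 9055. Replicate 1 listed it at 6.91 and replicate 2 at 7.91, and both overlapped the pooled peak. Its signal was above the median of the pool, 12.8, and that of replicate 1, 6.27, but below that of replicate 2, 8.90. It was the one peak within the body of a member that all 3 relaxed lists shared. In end-3 the pooled intron peak at position 948 had a signal of 9.89, with 4.14 in replicate 1 and no peak in replicate 2. The bases within 50 bp of the pooled summits of elt-4 (chrX:10475148-10475248) and end-1 (chrV:13986436-13986536) are shown, from the plus strand of ce11 with GATA sites in capitals, because they are the pooled summits in a member's promoter or body that hold such sites.
elt-4 pooled summit: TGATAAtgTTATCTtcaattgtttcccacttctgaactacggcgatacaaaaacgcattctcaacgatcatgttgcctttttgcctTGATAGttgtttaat
end-1 intron summit: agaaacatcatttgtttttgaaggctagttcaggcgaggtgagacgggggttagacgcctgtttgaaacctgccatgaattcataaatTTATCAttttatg
At end-1 the GATA site was near the edge of the stretch, and the summits of replicates 1 and 2 had 0 within 50 bp. At elt-4 the sites stood on both sides of the summit, 47, 39 and 39 bp from it, and so were also near the edges.

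Upstream of the promoters, end-3 had the most peaks, 4 in the pooled list and 7 in replicate 1, but 2 in replicate 2. One of them, at position -1232 in the untranslated region of aip-1, was in all 3 relaxed lists, at 15.7 in the pool, 8.97 in replicate 1 and 6.86 in replicate 2. Upstream of elt-2, a pooled peak at position -3331 had a signal of 11.8, with 8.98 in replicate 2 and no overlapping peak in replicate 1. Upstream of elt-4, one at position -4591 had 10.7, with an overlapping peak in replicate 2 and none in replicate 1. The pooled peak at position -4016 of med-1, again in T24D3.2, had 22.2, with 19.8 in replicate 2 and none in replicate 1. That at position -2001 of med-2, in an intron of K04C2.7, had 12.6, with 8.46 in replicate 2 and none in replicate 1. Each of these 4 peaks, at elt-2, elt-4, med-1 and med-2, was thus in the lists of the pool and replicate 2 and not in that of replicate 1. In the promoters of med-1 and med-2 each relaxed summit was found in 1 list, at position -566 of med-1 in replicate 1 with 7.91, and at position -701 of med-2 in replicate 2 with 7.71.

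The gene elt-7 had no summit in any window of any of the 4 lists. Its nearest pooled summit was 6025 bp upstream, in a coding exon of C18G1.8, with a signal of 12.4. Of the 5 kb upstream of elt-7, 87.0% of positions began a 36-base word found once in the genome. With words of 50 and 100 bases the share was 92.5% and 98.6%, and in its promoter it was 100% already with 36 bases. Whether this bears on the absence of summits was not tested. The protein-coding neighbours C18G1.8 and C18G1.9 overlap the 5 kb upstream.

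GATA sites were counted in the promoter around the first start. That of elt-2 held 8, a number reached by 2.59% of all promoters, and 6 of them were TGATAA, a number reached by 0.831%. Those of elt-4, end-1 and end-3 held 5 each, reached by 22.1% of all promoters, those of elt-7 and med-2 held 4, reached by 37.4%, and that of med-1 held 3, reached by 57.1%. The median over all promoters was 3. Thus 34 GATA sites lay in the 7 promoters. No thresholded summit lay within 50 bp of any of the 34, beside 1.90% of 61868 GATA sites in all promoters. At that share fewer than 1 of 34 sites would hold a summit, so 0 of 34 is near the background.

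The relaxed lists had summits within 50 bp of 3 of the 34 sites in the pool, or 8.82%, beside 5.42% of all promoter sites. All 3 were in elt-4. Replicate 1 had 1, in end-3, or 2.94% beside 5.10%. Replicate 2 had 2, both in elt-4, or 5.88% beside 5.55%. The 8 sites of elt-2 had none, and the nearest pooled summit to any of them was 2349 bp away. Among the 518 promoters with at least 8 GATA sites, 107 or 20.7% had a thresholded summit in the promoter of any transcript start, so most promoters as rich in sites as that of elt-2 had none either.

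**Figure D3:**
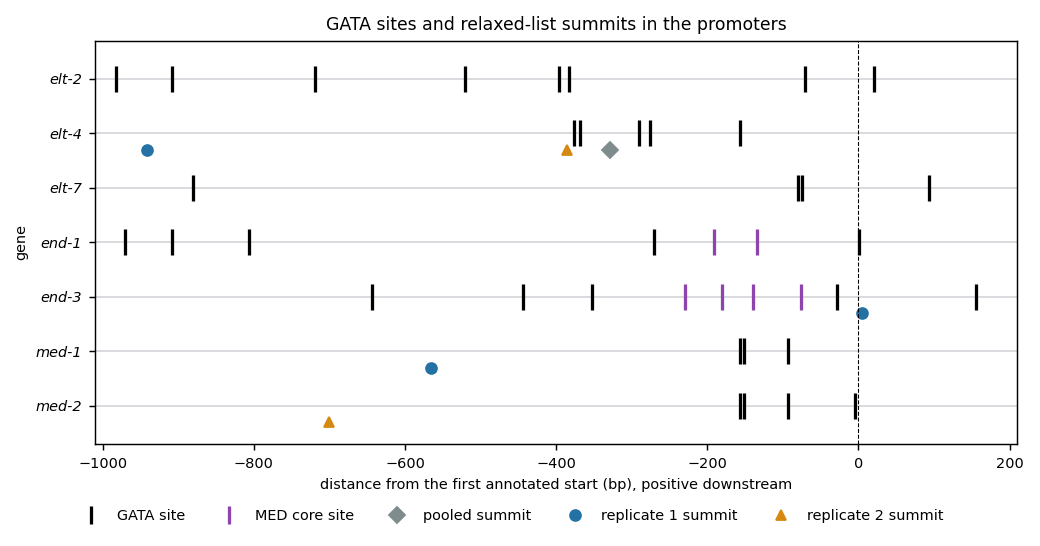
Positions in bp from the first annotated start of the GATA sites (black ticks) and AGTATAC cores (purple ticks) in the promoters of the first start of the 7 genes, with summits of the pooled list (grey diamond), replicate 1 (blue dots) and replicate 2 (orange triangles). The thresholded list has no summit in these windows; the pooled and replicate 2 summits of elt-4 stand beside its sites, and the rows of elt-2, elt-7 and end-1 hold sites and no summit.

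Because med-1 and med-2 are near-identical, reads can align equally well to both, and such reads are often discarded. From position -426 to 665 of med-1 the loci aligned over 1100 bp with 93.2% identical bases, and a further 191 bp upstream aligned at 86.4%. In their promoters 87.7% of positions began a 36-base word found once in the genome, and in their gene bodies 53.1% did. With words of 100 bases the promoter share was 100%. The promoters of elt-2, elt-4, elt-7 and end-1 were at 100% and that of end-3 at 99.9% already with 36 bases. The read length is not given in the sources used here, so whether reads were lost at med-1 and med-2 was not tested.

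The other 4 GATA factor genes gave the family context. The gene elt-3 itself had 5 thresholded summits in its gene body, the strongest at 220. Among these 5, 2 also lay in its promoters, the stronger at 180, with 108 in replicate 1 and 107 in replicate 2. Another thresholded summit lay 1316 bp upstream of its first start, with a signal of 47.7. Strain OP75 carries an elt-3 transgene, and signal from the native and the inserted copies cannot be told apart. In egl-18, an epidermal seam cell factor, 1 thresholded summit lay in an intron with a signal of 58.5, and its replicates stood at 41.2 and 13.3. No window of elt-1, which specifies epidermis in the embryo, or of elt-6, the neighbour and partner of egl-18, held a thresholded summit. In the promoter, 1 of 4 other GATA factor genes was thus marked and 0 of the 7, beside 15.5% of all genes. The marked gene was elt-3 itself, whose 6 annotated starts give it more promoter windows than the 1 or 2 starts of each member. The gene bodies of elt-3 and egl-18, 6343 and 15519 bp, were also longer than that of any member. These counts therefore show no contrast within the family.

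A list of genes of the early embryo held mainly maternal and Wnt pathway genes that act before the endoderm factors. It also held tbx-35 and ceh-51, which are not among those. Of the 22 listed genes that matched the annotation, 6 or 27.3% had a thresholded summit in the promoter, beside 15.5% of all genes. In the gene body 3 or 13.6% had one, beside 5.21%, and within 5 kb upstream 8 or 36.4%, beside 26.9%. The strongest in a promoter were at mex-1, an RNA-binding regulator of maternal messages, with 115, at skn-1 with 99.1, and at cbp-1, a histone acetyltransferase, which ranked 1146. The summit of mex-1 was nearer to the start of W03C9.5. At skn-1, the activator of med-1 and med-2, replicate 1 had 36.4 and replicate 2 had 66.9. These genes also act in many other tissues.

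Genes of the differentiated intestine formed another list. Whether ELT-2 or ELT-7 acts on each listed gene was not tested. Of 40, 1 or 2.50% had a thresholded summit in the promoter, 2 in the gene body and 6 or 15.0% within 5 kb upstream. The one with a promoter summit was fat-6, a stearoyl-CoA desaturase, with a signal of 67.6, 24.5 in replicate 1 and 45.4 in replicate 2. Of 18 transcription factor and related genes with known roles in intestine or endoderm lineage, 6 or 33.3% had a promoter summit, 7 or 38.9% a gene body summit and 8 or 44.4% one upstream. The strongest in a promoter were nhr-80 with 233, atf-7 with 220 and zip-2 with 104, and the summit of nhr-80 was nearer to the start of H10E21.1. Beside these lists and the 15.5% of all genes, the promoter count of the 7 GATA factor genes was 0. Over all genes the gene body share was 5.21% and the upstream share was 26.9%. The lists were chosen with earlier results of these data known. In some listed genes later starts add promoter windows: the summit of atf-7 lay 4207 bp after its first start and 388 bp from its nearest. Each of the 7 genes has 1 or 2 starts, and gene bodies differ in length too, so the shares are not measured over equal windows. Whether the lists differ was not tested.

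**Figure D4:**
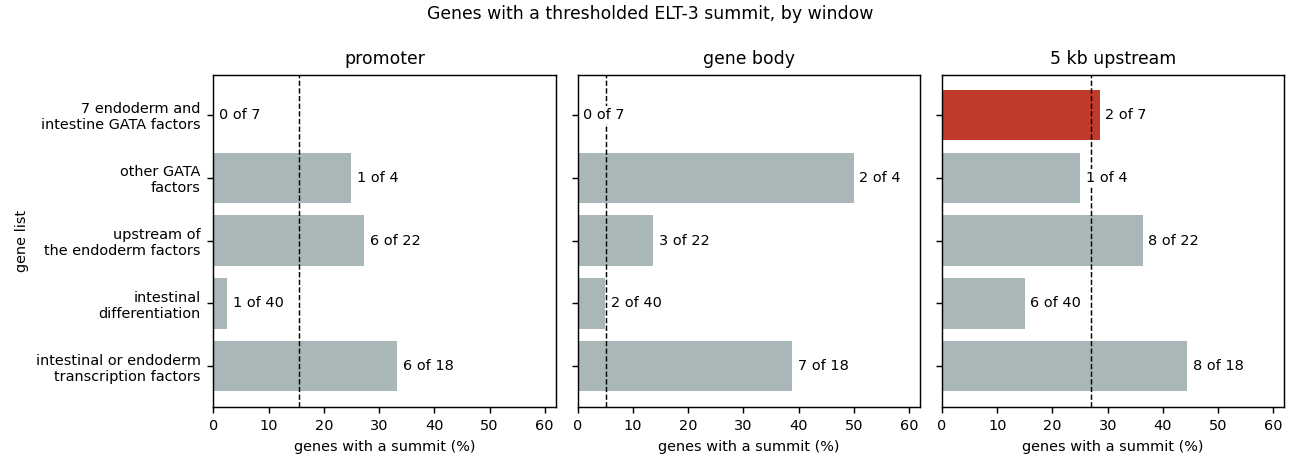
Percentage of genes with a thresholded ELT-3 summit in the promoter, the gene body or the 5 kb upstream, for the 7 endoderm and intestine GATA factor genes (red) and 4 other gene lists (grey), with counts beside the bars. The dashed lines are the shares of all protein-coding genes, 15.5%, 5.21% and 26.9%; the 7 genes have no bar for promoter and gene body, and 2 of 7 upstream.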

How the data were processed

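ELT-3 ChIP-seq peaks from 2 biological replicates were used as 4 lists on the ce11 build: 1 relaxed list per replicate, 1 of the pool and the thresholded list. Per the deposited file descriptions, peaks were called from alignments against a control, and the thresholded list was filtered on reproducibility (IDR). The authors deposited for each peak a signal value, whose scale is not stated, and a −log10 q, which was not used to rank peaks. They also deposited a summit offset in bp, which gave the summit position. Which aligner and peak caller were used, and the read length, is not given in the sources used here. Control libraries and the lists on ce10 were not analysed here.

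Gene models came from Ensembl release 115 and sequence from WBcel235, which is ce11. Coordinates count from 1. A gene was marked when a summit lay in its window. Replicate peaks were tied to a pooled peak by an overlap of at least 1 bp. Motifs were sought on both strands, overlapping matches counted. A position was unique when its word occurred once in the genome on either strand. The pair med-1 and med-2 was aligned with blastn 2.17.0. One listed gene, mom-3, was not matched. Named were the 7 genes, the other GATA factor genes, the gene with the start nearest to each nearest summit, the genes with the strongest promoter summit of each list (at most 3), and genes overlapping the 5 kb upstream. Other genes holding a peak described near a member were named after the values were seen. The members, lists and windows were chosen with earlier results of these data known. Counts and motif matches were tested on simulated data with planted peaks. Computations used Python 3.11.15 and numpy 2.4.6, and plots matplotlib 3.10.9.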

Additional observations from a re-analysis of the deposited data

How the results depend on the processing

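Of 60 alternatives run over all results, 45 kept the value within the spread set for it and 15 moved it. The spread was a factor of 1.5 for counts of genes, and for a distance the SD of its values without replicate 1 and without replicate 2. Where those lay far apart, as for elt-2, large moves fell within the spread, so these counts say little about the stability of distances. The promoter and gene body counts were 0 of 7 under every alternative run, while 8.35% to 19.8% of all genes were marked in the promoter and 2.56% to 10.1% in the gene body. With 7 genes a count of 0 at such shares says little. The upstream count was 0 with the 2265 strongest peaks, whose lowest signal was 59.9 and which marked 15.6% of all genes, and 1, end-3, with 3 kb, where 21.0% were marked. It was 2, end-3 and med-1, in the others. With the 2265 strongest peaks the nearest summit moved to 55357 bp for elt-7, 49509 bp for end-1, 40510 bp for end-3, 23879 bp for med-1 and 10822 bp for med-2. For elt-2 and elt-4 it was 43441 and 44394 bp, within the wide spread of each. The nearest thresholded peaks of all 7 genes had signals from 38.4 at elt-7 to 59.4 at end-3. They were below 59.9, so none was among the 2265.

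Leaving out either replicate gave distances from 6587 to 43457 bp for elt-2, 11220 to 44428 bp for elt-4, 28283 to 35158 bp for elt-7, 17508 to 27132 bp for end-1, 2404 to 2435 bp for end-3, 4016 to 4841 bp for med-1 and 4253 to 10821 bp for med-2. The low values of elt-2 and elt-4 came from replicate 2 alone, and the high value of med-2 too. The share of unique words in the med-1 and med-2 promoters was 92.4% with 50 bases and 100% with 100. No paired analysis was possible because there was 1 group. The number of peaks listed and an unknown depth limit what can be said of genes without a summit, and 7 genes are few.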
